A study of Mus musculus with 7 samples.

Results

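The 39 mouse Hox genes were followed in Pdgfra-low CD81+ cells sorted from intestinal mesenchyme. Members were the entries of the deposited expression table whose symbol is a Hox cluster letter (A, B, C or D) and a paralog number, and they are 39 of 24908 symbols. No Hox symbol was repeated. The 7 libraries are 3 wildtype controls, and 2 libraries each from day 4 and day 6 of Apc loss in the gut epithelium. The knockout mice carried floxed Apc alleles (Apc flox/flox) and the Villin-CreERT2 driver, which acts in the intestinal epithelium, so the sorted stromal cells are not the cells in which Apc was targeted. The column names of knockouts and controls alike describe the sort as GFP low and CD81 positive. Age, sex, the inducing agent, the segment of intestine, the pooling of animals and the Cre and flox status of the wildtype controls are not given in the sources used here. The labels do not say how many animals the libraries came from, so p-values speak only for the spread of these libraries, part of which may be technical. The libraries were not alike in sex: the Y-linked gene Uty, named after its values were seen, was at 4.19 FPKM in the first day 6 set control and 4.84 and 1.49 FPKM in the day 6 knockouts, at 0.0407 FPKM in the second day 6 set control and at 0 in all 3 libraries of the day 4 set. Apart from the second day 6 set control, this difference runs with the set, and its part in the comparisons of day 4 with wildtype or with day 6 was not tested. Column names place 2 controls with the day 6 knockouts (the day 6 set) and 1 control with the day 4 knockouts (the day 4 set). The second day 6 knockout column names no day, and its place in that set rests on its naming and on the samples left over.

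Hox genes encode homeodomain transcription factors and lie in 4 clusters in the order in which they act along the body axis. Genes with low paralog numbers sit at the 3′ end of a cluster and are used from anterior levels on, and genes with high numbers sit at the 5′ end and mark posterior structures such as the hindgut, the genitalia and the ends of the limbs. Fibroblasts keep much of this code in the adult, so the set of active Hox genes acts as a record of position. In the gut, the code is carried mainly by the mesenchyme, and the 5′ genes are typical of the colon.

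Levels are in FPKM, fragments scaled to transcript length and library size, without read counts, so depth is unknown, and in each library 2 to 9 genes with a mean of at least 5 FPKM elsewhere are listed at 0. These zeros include Col1a1, Col1a2 and Dcn in the day 4 set control, so that a 0 can be a failed estimate. All 10 sort and trophocyte markers passed the filter on low values. At day 4, 2 of the 10 passed the limma test described below, where 1.02% of all genes did: Cd34 and Wnt2b, both lower (adjusted p = 0.041 and 0.049). Over all genes 73 were lower at day 4, and 0 with a harvest set term or without either day 6 set control. The summed level of 8 immune markers ran from 660 to 922 FPKM over the controls. Day 6 knockouts held 698 and 841 FPKM of it, but day 4 knockouts 3341 FPKM (replicate 1) and 67.0 FPKM (replicate 2). The 10 epithelial markers summed to 5.53 to 9.22 FPKM in controls, 14.9 and 10.2 FPKM in day 4 knockouts and 34.0 and 11.5 FPKM in day 6 knockouts, with Cdx2 at 0 in every library. In day 4 knockout replicate 2, Lgals4 alone made up 8.73 FPKM of the sum, and Epcam was at its lowest of all libraries, 0.237 FPKM. The 6 smooth muscle and pericyte markers summed to 170.3 to 186.5 FPKM in controls and were below that in every knockout, at 85.1 and 104.6 FPKM on day 4 and 63.9 and 149.3 FPKM on day 6. Rgs5 alone held 135.5 to 146.6 FPKM in controls and 28.3 to 106.2 FPKM in knockouts. Of the 5 tested markers of this list, 3 had a positive and 2 a negative log2 change against wildtype on each day. The 6 endothelial markers summed to 2.57 to 7.24 FPKM in controls, 11.8 and 13.1 FPKM on day 4 and 5.20 and 8.48 FPKM on day 6. Epithelial sums thus lay above the controls in all 4 knockouts, smooth muscle and pericyte sums below them, and endothelial sums above them on day 4. In the epithelial and the smooth muscle and pericyte lists, single members did not all follow the sum. The part of these cell types in the Hox comparisons was not tested. The 6 markers of enteric neurons and glia summed to at most 1.399 FPKM. In bulk libraries such as these, fewer cells of a type and less RNA per cell cannot be told apart.

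The Hox code of these cells was sharply bounded. The expressed genes lay in paralog groups 2 to 9, though not every gene of those groups was expressed. The genes of groups 10 to 13, at the 5′ end, were at or near 0. Of the 39 members, 17 reached 1 FPKM in at least 2 of the 7 libraries and were tested, against 11735 of all 24908 symbols, and 13 of the 17 did so in all 7. They were Hoxa2, Hoxa3, Hoxa4, Hoxa5 and Hoxa7 of cluster A, Hoxb2 to Hoxb7 of cluster B, Hoxc4, Hoxc5, Hoxc6, Hoxc8 and Hoxc9 of cluster C, and Hoxd8 alone of cluster D. The next member under the limit was Hoxa6, with 0.619 to 1.66 FPKM and over 1 FPKM in 1 library only. Of the 22 not tested, 20 stayed under 0.5 FPKM everywhere. These were Hoxa9, Hoxa10, Hoxa11 and Hoxa13, Hoxb1, Hoxb8, Hoxb9 and Hoxb13, Hoxc10 to Hoxc13, and Hoxd1, Hoxd3, Hoxd4 and Hoxd9 to Hoxd13. Hoxc11, Hoxc12, Hoxc13, Hoxd1, Hoxd12 and Hoxd13 are listed at 0 in all 7 libraries.

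**Figure D1:**
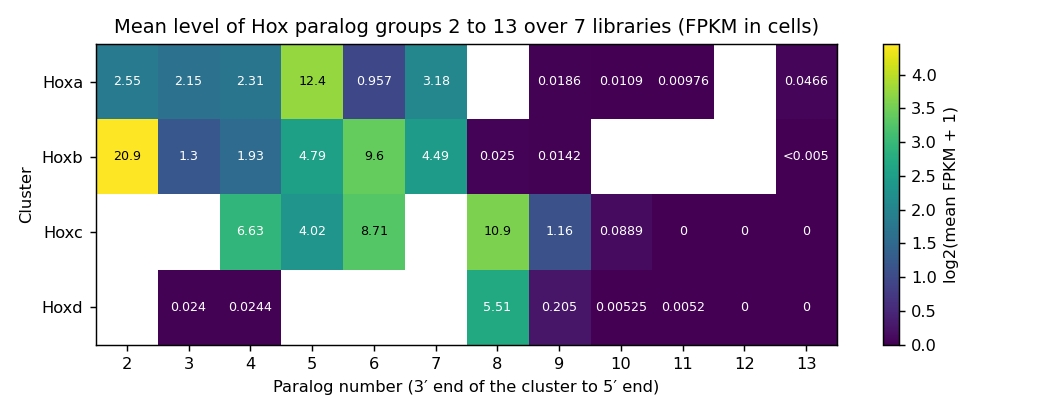
Mean FPKM over the 7 libraries (number in each cell, colour on a log2 scale) for the Hox genes of paralog groups 2 to 13, by cluster (vertical axis) and paralog number (horizontal axis, 3′ to 5′). Blank cells are positions with no gene. The filled region runs from Hoxa2 to Hoxa7, Hoxb2 to Hoxb7 and Hoxc4 to Hoxc9, with Hoxd8 alone in cluster D.

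The edge was steep in each cluster. In cluster A, Hoxa7 was 2.10 to 5.23 FPKM and Hoxa9, the next gene toward the 5′ end, was at most 0.0549 FPKM. In cluster B, Hoxb7 was 3.24 to 5.71 FPKM and Hoxb8 at most 0.0434 FPKM. In cluster C the edge lay further 5′, with Hoxc8 at 7.18 to 13.3 FPKM, Hoxc9 at 0.682 to 1.67 FPKM and Hoxc10 at most 0.161 FPKM. In cluster D, Hoxd8 at 3.84 to 6.45 FPKM stood between Hoxd9 at 0.129 to 0.329 FPKM and Hoxd3 and Hoxd4 at no more than 0.0746 and 0.135 FPKM. The values on either side of these edges did not overlap in any of the 7 libraries. The highest value of a group 13 gene was that of Hoxa13, 0.326 FPKM in the first day 6 set control, with 0 in the other 6 libraries. Summed over the 12 genes of paralog groups 10 to 13, no library exceeded 0.4595 FPKM, of a Hox total of 87.4 to 129.8 FPKM.

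Upstream sequences are shown to set expressed members (Hoxa5, Hoxb4 and Hoxd8) beside silent members of the same cluster (Hoxa9, Hoxb8 and Hoxd4). RefSeq windows on GRCm38.p6 were matched by symbol for 22 of the 39 genes, 7 of them tested. Those printed are the 250 bases before the start, 5′ to 3′ on the gene's strand, from windows that overlap no annotated UTR in GENCODE M21. Capitals mark matches on either strand to TGATNNAT (a PBX-HOX site), TTTATG (a caudal site) or AGGTCA (a retinoic acid receptor half-site). The expression values are on mm9 per the submitters' processing notes and carry no positions.
Hoxa5 (chr6:52204588-52204837, minus strand): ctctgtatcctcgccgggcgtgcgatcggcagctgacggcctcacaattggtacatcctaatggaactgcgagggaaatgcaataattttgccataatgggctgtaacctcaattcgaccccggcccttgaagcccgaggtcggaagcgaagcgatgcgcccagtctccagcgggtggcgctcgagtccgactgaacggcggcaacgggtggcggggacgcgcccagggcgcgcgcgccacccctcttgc
Hoxa9 (chr6:52227371-52227620, minus strand): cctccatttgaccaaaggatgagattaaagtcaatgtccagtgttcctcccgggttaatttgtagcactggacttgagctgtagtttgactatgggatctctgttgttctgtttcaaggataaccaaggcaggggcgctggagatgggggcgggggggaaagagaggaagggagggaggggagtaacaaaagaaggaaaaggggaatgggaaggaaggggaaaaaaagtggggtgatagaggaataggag
Hoxb4 (chr11:96318017-96318266, plus strand): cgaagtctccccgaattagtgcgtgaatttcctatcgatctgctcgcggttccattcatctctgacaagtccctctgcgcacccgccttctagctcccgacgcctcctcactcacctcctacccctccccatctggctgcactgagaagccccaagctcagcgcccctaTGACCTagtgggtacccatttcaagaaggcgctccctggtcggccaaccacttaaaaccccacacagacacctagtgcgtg
Hoxb8 (chr11:96281655-96281904, plus strand): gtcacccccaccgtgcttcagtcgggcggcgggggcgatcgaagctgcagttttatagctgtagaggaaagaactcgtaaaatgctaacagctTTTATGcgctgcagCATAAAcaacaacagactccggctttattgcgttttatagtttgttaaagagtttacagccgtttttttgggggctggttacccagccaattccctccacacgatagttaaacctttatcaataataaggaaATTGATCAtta
Hoxd8 (chr2:74704365-74704614, plus strand): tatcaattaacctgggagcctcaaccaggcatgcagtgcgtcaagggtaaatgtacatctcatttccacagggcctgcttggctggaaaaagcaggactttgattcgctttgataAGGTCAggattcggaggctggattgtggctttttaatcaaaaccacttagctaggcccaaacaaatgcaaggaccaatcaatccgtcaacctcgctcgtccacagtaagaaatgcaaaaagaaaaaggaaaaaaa
Hoxd4 (chr2:74721728-74721977, plus strand): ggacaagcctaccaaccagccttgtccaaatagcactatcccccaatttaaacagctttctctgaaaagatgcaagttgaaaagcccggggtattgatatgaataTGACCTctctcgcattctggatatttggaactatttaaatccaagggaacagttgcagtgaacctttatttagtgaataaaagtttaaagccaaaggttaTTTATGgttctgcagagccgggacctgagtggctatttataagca

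Hoxb4 and Hoxd8 each held 1 AGGTCA match, as did Hoxd4, a silent gene, which also held 1 TTTATG match. Hoxb8 held 2 TTTATG matches and 1 TGATNNAT match, while Hoxa5 and Hoxa9 held none of the 3. Across the Hox windows AGGTCA was found in 3 of 7 windows of tested genes and 3 of 17 windows of the others, against 14% of 32851 windows of all genes. TTTATG was found in 1 of 7 and 4 of 17 (10.8% of all), and TGATNNAT in 1 of 7 and 3 of 17 (7.68% of all). The windows of Hox genes that were not tested, Hoxa6 among them, were not poorer in CG. They held a median of 13 CG dinucleotides, those of tested genes 8 and all windows 6. Such matches describe letters only and show no binding.

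Hoxb2, which acts in the hindbrain and neural crest as well as in mesoderm, was the most abundant Hox gene in 7 of 7 libraries. The day 6 set controls held 15.6 and 27.5 FPKM and the day 4 set control 16.2 FPKM. The day 4 knockouts held 18.7 and 25.9 FPKM and the day 6 knockouts 19.7 and 22.6 FPKM (replicates 1 and 2 in order, here and throughout). The 3 groups overlapped, and the highest value was in a control. Its mean of 20.9 FPKM lay at percentile 75.6 of the genes tested. For its cluster neighbour Hoxb6, the controls in the same order held 7.87, 10.6 and 9.08 FPKM, the day 4 knockouts 8.81 and 9.98 FPKM and the day 6 knockouts 8.87 and 12.0 FPKM. With a coefficient of variation (CV) of 14.2% over the libraries, Hoxb6 was the steadiest of the 17. Hoxb5 and Hoxb7 were lower, at means of 4.79 and 4.49 FPKM, and Hoxb3 and Hoxb4 lower still, at 1.30 and 1.93 FPKM.

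Hoxa5, a regulator of lung and gut mesenchyme development, led cluster A and varied most among the abundant members. Controls held 9.93, 11.2 and 12.4 FPKM of it, day 4 knockouts 9.41 and 25.7 FPKM and day 6 knockouts 5.45 and 12.5 FPKM. The lowest and highest of the 7 values were both in knockout libraries, and the controls lay between them. The other tested genes of the cluster had means of 2.15 to 3.18 FPKM. The 3′ genes Hoxa2, Hoxa3 and Hoxa4 shared their lowest pair of libraries with Hoxa5, day 4 knockout replicate 1 and day 6 knockout replicate 1. The upper ranks differed. Hoxa2 was highest where Hoxa5 was, but Hoxa3 in the second day 6 set control (3.19 FPKM) and Hoxa4 in the first (3.37 FPKM). The sum of Hoxa2 to Hoxa5 gave 17.4, 20.1 and 19.9 FPKM for the controls, 12.7 and 35.9 FPKM for the day 4 knockouts and 9.33 and 20.3 FPKM for the day 6 knockouts.

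Cluster C supplied the most even block. Hoxc8, a thoracic-level gene, held 10.96, 13.3 and 10.8 FPKM in wildtype, 12.5 and 7.18 FPKM on day 4 and 11.9 and 9.53 FPKM on day 6. Hoxc6 held 8.39, 11.8 and 8.48 FPKM in wildtype, 7.99 and 7.51 FPKM on day 4 and 8.04 and 8.79 FPKM on day 6. Hoxc4 held 5.56, 6.98 and 6.89 FPKM in wildtype, 5.99 and 9.33 FPKM on day 4 and 5.64 and 6.01 FPKM on day 6. Day 4 knockout replicate 2 thus held the highest Hoxc4 and the lowest Hoxc6 and Hoxc8 of the 7 libraries. Hoxd8, the single active gene of cluster D, held 5.92, 5.29 and 3.84 FPKM in wildtype, 6.45 FPKM in each day 4 knockout and 5.08 and 5.57 FPKM on day 6. Both day 4 values lay above every control, and the day 6 values lay among the controls.

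**Figure D2:**
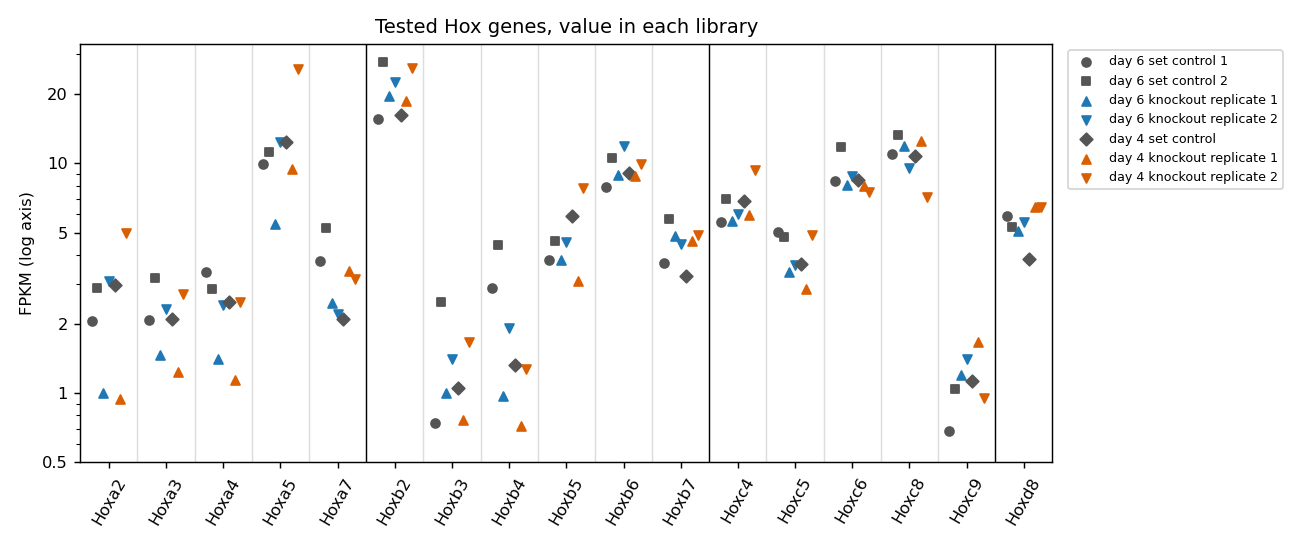
FPKM on a log axis of the 17 tested Hox genes (horizontal axis, by cluster) in each library, 1 point a library, coloured by group (grey wildtype, orange day 4, blue day 6). Day 4 knockout replicate 2 stands highest for Hoxa2 and Hoxa5 (25.7 FPKM), and the replicate 1 knockouts of both days stand lowest for Hoxa2, Hoxa3 and Hoxa4.

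Ranked by mean, the order was Hoxb2, Hoxa5, Hoxc8, Hoxb6, Hoxc6, Hoxc4 and Hoxd8 for the 7 members of at least 5 FPKM. The ranges of neighbours overlapped at all 16 steps of the order of the 17 genes, so the ranks are approximate. Within libraries, Hoxb2 exceeded Hoxa5 in 7 of 7 and Hoxc6 exceeded Hoxc4 in 6 of 7, while Hoxa5 exceeded Hoxc8 in only 3. The rank order was shared between libraries, with a Spearman correlation over the 17 genes of 0.816 to 0.990 (median 0.917) for the 21 pairs. Over all tested genes it was 0.915 to 0.970 (median 0.944). These correlations are across genes, which are not independent replicates. The median SD over the 7 libraries on the log2(FPKM + 1) scale was 0.302 for the 17 genes, 0.260 for all tested genes and 0.257 for the 8177 genes whose means lie in the range of these 17.

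Summed by cluster, B held the largest part of the Hox signal and D the smallest, but the place of B rested on Hoxb2: without that gene the median share of B was 26.1%, under 39% for C and 28.5% for A. Cluster B gave 36.7% to 44.9% of the summed Hox FPKM of a library, C 23.0% to 34.7%, A 14.4% to 32.0% and D 4.27% to 7.16%. Both extremes of cluster A were knockouts, 14.4% in day 6 knockout replicate 1 and 32.0% in day 4 knockout replicate 2, while controls lay at 21.6% to 24.6%. The FPKM-weighted mean paralog number, which gives the balance between 3′ and 5′ genes, was 5.03 ± 0.148 (SD, n = 3) in controls, 5.00 ± 0.390 (n = 2) at day 4 and 5.03 ± 0.171 (n = 2) at day 6. The means of the knockout groups differed from the control mean by less than the SD of the controls. The single day 4 libraries, at 5.27 and 4.72, lay on opposite sides of the control range of 4.89 to 5.19. The total over 39 genes averaged 105.4 ± 18.2 FPKM (SD, n = 3) for wildtype, 111.0 ± 26.6 FPKM (n = 2) for day 4 and 96.9 ± 13.3 FPKM (n = 2) for day 6, again with overlapping libraries.

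**Figure D3:**
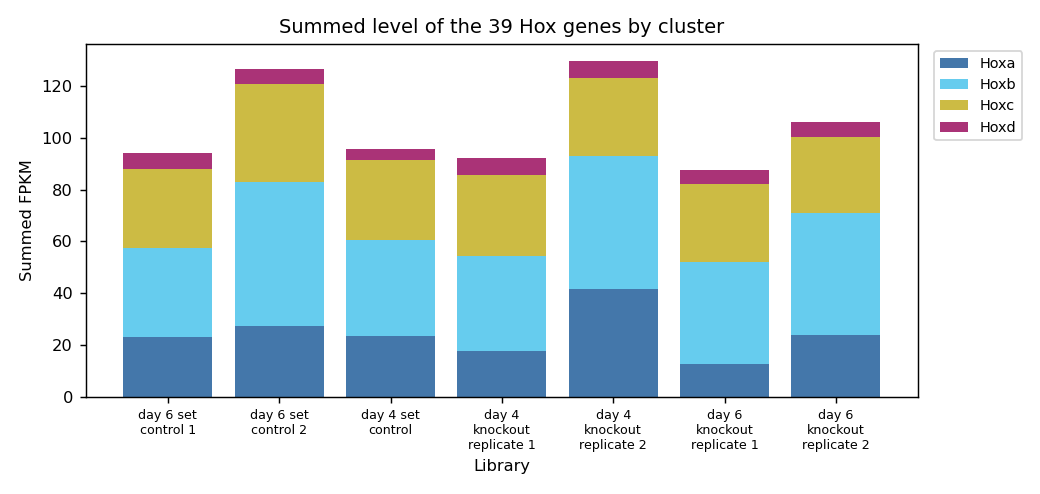
Summed FPKM of the 39 Hox genes in each library, stacked by cluster (bars start at 0). Totals run from 87.4 FPKM in day 6 knockout replicate 1 to 129.8 FPKM in day 4 knockout replicate 2, and the cluster A part varies most.

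The comparisons with wildtype ask whether stromal cells keep their positional code while the epithelium beside them loses Apc. No Hox gene passed the test in any comparison, and the 22 members under the filter were not tested. By limma on log2(FPKM + 1), with p-values adjusted over all 11735 genes, 0 of 17 Hox genes passed at day 4, where 1.02% of all genes did. At day 6 0 of 17 passed (0.0426% of all genes), with both days averaged 0 of 17 (0.162% of all genes, all higher; after quantile normalization 35 were higher and 7 lower), and for day 6 against day 4 0 of 17 (0% of all genes). At an unadjusted p under 0.05, 1 Hox gene passed at day 4 (18.6% of all genes did), 0 at day 6 (7.26%), 1 with both days averaged (13.8%) and 0 for day 6 against day 4 (11.5%). In each case the 1 gene was Hoxb4. Both days are set against the same 3 controls, so their errors are shared.

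Over the 17 genes the median log2 change was -0.08 at day 4 (8 higher, 9 lower) and -0.14 at day 6 (5 higher, 12 lower), beside -0.06 and -0.01 over all tested genes. Rescaling the columns to equal sums gave medians of 0.00 and -0.18. The standard errors (SE) ran from 0.18 to 0.48 in either comparison. The 95% confidence interval of the change in log2(FPKM + 1) lay between -1 and 1 for 13 of 17 genes at day 4 and 12 of 17 at day 6. For genes near 1 FPKM, such as Hoxb3 and Hoxc9, this scale understates the fold change in FPKM that an interval covers. Hoxb6 had an interval of -0.41 to 0.48 at day 4 and -0.29 to 0.61 at day 6. For Hoxb2 it was -0.42 to 0.81 and -0.48 to 0.75, for Hoxc6 -0.68 to 0.17 and -0.58 to 0.28, and for Hoxc4 -0.29 to 0.67 and -0.61 to 0.36. For Hoxc8 it was -0.82 to 0.29 and -0.67 to 0.44. Hoxa5 had wide intervals of -0.53 to 1.45 and -1.37 to 0.61, around log2 changes of 0.46 and -0.38. Without day 4 knockout replicate 2 the day 4 values of Hoxa5, Hoxb2, Hoxb6, Hoxc4 and Hoxc8 changed sign, to -0.22, -0.03, -0.05, -0.09 and 0.10. Without day 6 knockout replicate 1 the day 6 value of Hoxa5 became 0.15.

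**Figure D4:**
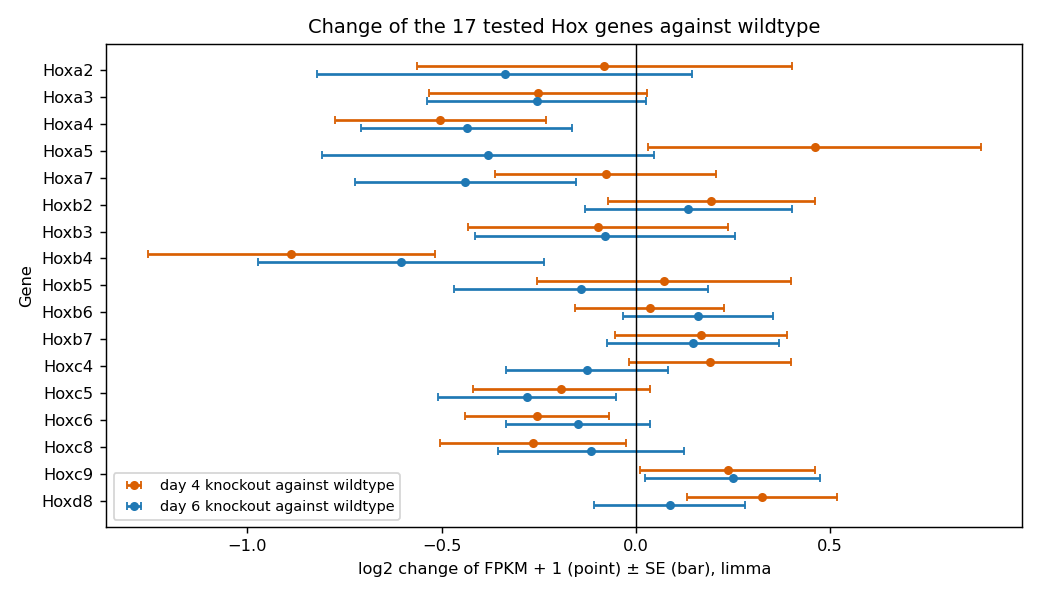
Log2 change (point) and SE (bar) against wildtype of the 17 tested Hox genes, at day 4 in orange (n = 2 against 3) and day 6 in blue (n = 2 against 3), by limma. Hoxb4 lies furthest from 0 at -0.89 and -0.60, and none of the 34 changes passed the threshold.

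Hoxb4, known for its part in blood stem cells as well as in axial patterning, had the smallest p and is described for that reason, after its values were seen. The day 6 set controls held 2.86 and 4.43 FPKM, the day 4 set control 1.32 FPKM, the day 4 knockouts 0.720 and 1.27 FPKM and the day 6 knockouts 0.976 and 1.92 FPKM. The day 4 values lay below all controls, and the day 6 values below the controls of their own set, while the day 4 set control lay between them. The log2 change was -0.89 ± 0.37 (SE) at day 4 (limma, adjusted p = 0.258), -0.60 ± 0.37 at day 6 (adjusted p = 0.800) and -0.75 ± 0.31 with both days averaged (adjusted p = 0.341). With a term for the harvest set the day 4 change was -0.23 and the day 6 change -0.93 (limma, adjusted p = 0.977 and 0.540). Over the other alternatives run, none of which called it, the day 4 change ranged from -1.33 with a pseudocount of 0.1 to -0.60 without the second day 6 set control.

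Few members separated the groups. At day 4 both knockouts lay outside the range of the controls for 3 of 17 Hox genes, Hoxb4 and Hoxc6 below (22.0% of all tested genes lay below) and Hoxd8 above (12.5% lay above), where 34.5% of all genes did so either way. At day 6 they did so for 3 of 17 genes against 25.9%, Hoxa4 and Hoxc5 below (11.9% of all genes) and Hoxc9 above (13.9%). With both days together it was 0 of 17 against 11.9%, of which 5.32% were above and 6.58% below. Between day 6 and day 4 it was 3 of 17 against 42.6%, Hoxc6 higher (27.2% of all genes) and Hoxa7 and Hoxd8 lower (15.3%). The log2 change of Hoxd8 was 0.32 ± 0.19 at day 4 (limma, adjusted p = 0.413) and 0.09 ± 0.19 at day 6 (adjusted p = 0.957), the latter turning to -0.06 with the harvest set term or without the day 4 set control. Hoxa4 stood at -0.50 ± 0.27 at day 4 and -0.43 ± 0.27 at day 6 (limma, adjusted p = 0.365 and 0.804). Hoxc9, at the 5′ edge of the active block, stood at 0.25 ± 0.23 at day 6 (limma, adjusted p = 0.875) and Hoxc5 at -0.28 ± 0.23 (adjusted p = 0.855).

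Between the days, Hoxa5 had the largest value, -0.84 ± 0.47 for day 6 against day 4 (limma, adjusted p = 0.546), and it was -0.16 without day 4 knockout replicate 2. That library also had the lowest immune marker sum (67.0 FPKM), the lowest Cd81 (32.4 FPKM, where the other libraries held 94.8 to 169 FPKM) and the highest level of the telocyte gene Bmp7 (4.74 FPKM, the others holding 0.672 to 1.46 FPKM). Its 5 telocyte markers summed to 120.1 FPKM, and those of the other libraries to 65.6 to 106.8 FPKM. The part of these features in its Hox values was not tested. Between replicates, replicate 1 was below replicate 2 on both days for 11 of 17 Hox genes (64.7%), against 44.3% of all tested genes, and above it on both days for 2 of 17 (11.8%, against 12.0%).

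Some of these values could be shared between overlapping genes. In GENCODE M21, 7 of the 17 tested genes overlap another Hox gene on the same strand, namely Hoxa3 with Hoxa4 and Hoxa5, and Hoxc5 with Hoxc6, Hoxc8 and Hoxc9. Counted apart, 9 of the 17 overlap a gene on the opposite strand, such as Hoxaas3 opposite Hoxa3, Hoxa4, Hoxa5 and Hoxa7, and whether strand was used is not given in the sources used here. Levels of these genes relative to each other are therefore uncertain. Of 19 transcripts antisense to or between Hox genes on a fixed list, 17 were measured and 2 tested, and 0 passed in any comparison. Among all tested genes at most 1.02% passed (day 4). Hotairm1, a noncoding transcript at the 3′ end of cluster A, held 21.6, 0 and 17.5 FPKM in wildtype, 9.66 and 19.0 FPKM on day 4 and 27.5 and 45.2 FPKM on day 6. The 0 in the second day 6 set control stands alone. Hoxaas2 followed at 0.164 to 1.20 FPKM, and Hotair, Hottip and Haglr, which lie among silent 5′ or cluster D genes, are listed at 0 in every library.

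HOX proteins bind DNA together with TALE homeodomain cofactors of the PBX and MEIS families, which were present throughout. Of 11 on the list 10 were tested and 0 passed in any comparison, where at most 1.02% of all tested genes did (day 4). The median log2 change was -0.31 at day 4, with 9 of 10 lower, and -0.04 at day 6 (7 of 10 lower), beside -0.06 and -0.01 over all tested genes. Meis1 held 41.0, 41.3 and 37.6 FPKM in wildtype, 39.3 and 36.1 FPKM on day 4 and 39.9 and 38.0 FPKM on day 6, with the groups overlapping. Tgif1, a related repressor, ranged from 24.8 to 48.7 FPKM with a median of 32.2 FPKM. The caudal factors Cdx2 and Cdx4, which switch on Hox genes in the embryo, are listed at 0 throughout, and of 12 homeobox relatives on the list only Meox1 was tested (2.44 to 10.5 FPKM, highest in day 4 knockout replicate 2), without passing.

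Retinoic acid, the signal that opens 3′ Hox genes in the embryo, was represented by 19 genes, of which 12 were tested. Of the 12, 1 rose and 0 fell, beside 1.02% of all genes called at day 4 and 0.162% with both days averaged. It was Cyp1b1, a retinoid and steroid metabolising cytochrome, which held 96.3, 70.7 and 84.8 FPKM in wildtype, 370.9 and 416.9 FPKM on day 4 and 476.8 and 253.2 FPKM on day 6. All knockouts lay above all controls, as they did for 5.32% of tested genes. The log2 change was 2.23 ± 0.29 at day 4 (limma, adjusted p = 0.0322) and 2.14 ± 0.24 with both days averaged (adjusted p = 0.0202), and 2.05 ± 0.29 at day 6 missed the threshold (adjusted p = 0.0925). Its day 4 call was lost without the first or the second day 6 set control (limma, adjusted p = 0.0780 and 0.127), without day 4 knockout replicate 1 or 2 (0.0520 and 0.111), with no filter on low values (0.111) and with the harvest set term (0.257). The averaged call was lost without the first or second day 6 set control (limma, adjusted p = 0.0826 and 0.141), without day 4 knockout replicate 2 (0.0706) and with no filter (0.114). The retinaldehyde dehydrogenase Aldh1a3 was 150.1 to 533.9 FPKM, with a median of 187.5 FPKM. Its knockouts also all lay above all controls, but it did not pass.

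Polycomb complexes keep 5′ Hox genes silent, and the MLL/COMPASS complexes keep active ones open. Of their members 33 of 34 and 15 of 17 were tested, and 0 passed in any comparison. Among all tested genes at most 1.02% passed (day 4). A count of 0, here and for the lists below, thus says little about their members. Median log2 changes were -0.09 and -0.11 at day 4 and -0.04 and 0.03 at day 6. By the naming rule, the histone binder Rbbp7 (88.6 to 112.3 FPKM) and the PRC1 subunit Phc2 (29.7 to 46.1 FPKM) led the first list, and Psip1 (25.9 to 32.6 FPKM) and Cxxc1 (24.7 to 33.4 FPKM) the second. Of 34 regional transcription factors of gut mesenchyme 19 were tested and 0 passed. Tcf21, a fibroblast regulator, stood at 209.4 to 492.2 FPKM and Foxf1, the hedgehog-dependent factor of gut mesenchyme, at 119.4 to 218.4 FPKM. Some members were named after their values were seen. Nkx2-3, a factor of intestinal mesenchyme, was 82.4 to 161.6 FPKM. The stomach factor Barx1 reached at most 0.104 FPKM and the pyloric factor Nkx2-5 is listed at 0, while Nkx3-2 held 1.78 to 7.29 FPKM. Members picked in this way do not settle the gut region of the cells. Of 13 genes flanking the clusters 8 were tested and 0 passed. Hibadh (35.7 to 50.6 FPKM) and Skap2 (24.6 to 42.7 FPKM) lie beside cluster A.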

How the data were processed

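RNA from sorted Pdgfra-low CD81+ cells was sequenced as poly-A selected, randomly primed libraries on an Illumina platform, per the labels. The values are FPKM made by the authors and deposited as 1 column per library. The submitters' processing notes name kallisto 0.46.1, DESeq2 1.40.1 and mm9 without saying what each did. Control columns cannot be tied to numbered control samples and are named by harvest set, from the column names.

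Repeated symbols (293 of 24908) were reduced to the entry with the highest mean. The 11735 genes that reached 1 FPKM in at least 2 libraries were tested as log2(FPKM + 1), which understates changes of low genes, with limma 3.58.1 in R 4.3.3. The model had 1 mean per group over all 7 libraries, 4 residual degrees of freedom and an intensity trend. Tests were two-sided with Benjamini-Hochberg adjustment over all tested genes and a threshold of 0.05. The fit was tested on simulated data. Members and lists were chosen with earlier results of these data known. Values in every library are given for Hox genes with a mean of at least 5 FPKM, and lists are illustrated by their 2 highest members and any gene that passed. Protein sequences were not used here, and 1 untested member and 1 marker are not reported here.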

Additional observations from a re-analysis of the deposited data

How the results depend on the processing

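The 0 Hox calls in each of the 4 comparisons held under every alternative run: a pseudocount of 0.1, no filter on low values (33 Hox genes tested), quantile normalization, rescaled columns, a harvest set term, zeros of abundant genes set missing, and each library left out. In some runs 0 of all genes were called, as at day 4 with no filter, so the Hox count there could not differ. Of 313 alternative values of 24 Hox changes, 0 were called, 300 kept their direction and 13 reversed, where the cause was not tested. With the harvest set term Hoxd8 at day 6 was -0.063. Over libraries left out in turn, ranges at day 4 were -0.22 to 1.14 for Hoxa5, -0.031 to 0.44 for Hoxb2, -0.060 to 0.13 for Hoxb6, -0.091 to 0.47 for Hoxc4 and -0.63 to 0.10 for Hoxc8. At day 6 they were -0.91 to 0.15 for Hoxa5, -0.0038 to 0.39 for Hoxb2, -0.036 to 0.36 for Hoxb6, -0.26 to 0.033 for Hoxc8, -0.063 to 0.20 for Hoxd8 and -0.85 to 0.17 for Hoxa2. Without Hoxb2, the median over libraries of the weighted mean paralog number was 5.70 (5.02 with it), and of the shares 28.5% for cluster A (22.4%), 26.1% for B (39.9%), 39% for C (32.5%) and 7.19% for D (5.66%).

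Calls over all genes moved more. At day 4 there were 120, but 5 with the harvest set term, 0 with no filter and 2 to 474 with 1 library left out. At day 6 there were 5, but 9 with rescaled columns, 2 with the harvest set term or a pseudocount of 0.1, 3 with no filter, 0 after quantile normalization and 0 to 6 with 1 library left out. Averaged over the days there were 19, but 0 with no filter, 42 after quantile normalization and 5 to 80 with 1 library left out. For day 6 against day 4 there were 0, but 3 with the harvest set term, up to 83 with 1 library left out and 15 with the replicate block, a fit on the 4 knockouts in which 0 Hox genes passed. Deviations of equally numbered knockouts correlated at -0.0275 across genes between the days. Such a correlation does not see a shift common to all genes. Replicate 1 was below replicate 2 on both days for 44.3% of tested genes and above it for 12.0%. Whether equally numbered knockouts share more than a number was not tested. Controls carry no number from their titles, so no block could be fitted against wildtype.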

Other observations

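A pattern across libraries, chosen after the values were seen and given without a test, set the 3′ genes of cluster A beside 2 of the enzymes that make retinoic acid. Aldh1a2, the main retinaldehyde dehydrogenase of embryonic mesoderm, held 104.1, 102.5 and 93.5 FPKM in wildtype, 47.2 and 125.6 FPKM in replicates 1 and 2 of day 4, and 52.8 and 84.9 FPKM in replicates 1 and 2 of day 6. Rdh10, the retinol dehydrogenase of the step before it, was 66.3, 91.6 and 63.1 FPKM, then 40.1 and 133.8 FPKM, then 48.4 and 73.2 FPKM, in the same order. Rarb, a receptor and retinoic acid target, was lowest in the same pair of libraries, at 2.40 and 2.65 FPKM, and highest at 8.74 FPKM in the second day 6 set control. The sum of Hoxa2 to Hoxa5 was likewise lowest in those 2 libraries (12.7 and 9.33 FPKM) and highest, like both enzymes, in day 4 knockout replicate 2 (35.9 FPKM). The pattern was not particular to retinoid genes. Foxf2 (14.8 and 21.4 FPKM, highest 37.3 FPKM) and Tcf21 (296.0 and 209.4 FPKM, highest 492.2 FPKM) had the same lowest pair and highest library. Over all tested genes, replicate 1 was below replicate 2 on both days for 44.3% and above it for 12.0%. Other retinaldehyde dehydrogenases did not share this order. Aldh1a1 was highest in the 2 replicate 1 knockouts (142.5 FPKM on day 4, as in the first day 6 set control, and 151.0 FPKM on day 6), and Aldh1a3 was lowest in the first day 6 set control (150.1 FPKM). The summed smooth muscle and pericyte markers were also lowest in the 2 replicate 1 knockouts (85.1 and 63.9 FPKM, the rest holding 104.6 to 186.5 FPKM). Rgs5, a large part of that sum, was instead lowest in day 6 knockout replicate 1 and day 4 knockout replicate 2 (28.3 and 37.8 FPKM). Summed epithelial markers were highest in the 2 replicate 1 knockouts (14.9 and 34.0 FPKM). The part of these cell types in the pattern was not tested.

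Pbx3, named after its values were seen, held 20.6, 17.7 and 17.3 FPKM in wildtype, 12.4 FPKM in each day 4 knockout and 16.3 and 19.5 FPKM on day 6, a log2 change of -0.54 ± 0.16 at day 4 (limma, adjusted p = 0.142). Dpy30, a core subunit of the MLL/COMPASS complexes and chosen in the same way, held 34.0, 30.1 and 32.6 FPKM in wildtype, 22.2 and 21.6 FPKM on day 4 and 22.3 and 25.1 FPKM on day 6. All 4 knockout libraries lay below all 3 controls for Dpy30, as they did for 6.58% of tested genes, and its log2 change was -0.54 ± 0.14 at day 4 (limma, adjusted p = 0.122) and -0.43 ± 0.14 at day 6 (adjusted p = 0.609).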
